A study of Arabidopsis thaliana with 4 samples.

Results

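The aquaporin family of Arabidopsis thaliana was followed in whole seedlings given glutamine after growth without nitrogen. Its 35 genes were taken by their locus identifiers from a table of 33602 genes, and all 35 were found there and in the RefSeq annotation. They comprise 5 PIP1 and 8 PIP2 genes of the plasma membrane, 10 TIP genes of the tonoplast, 9 NIP genes and 3 SIP genes. All seedlings were of the Columbia ecotype, were 14 days old and had been raised in liquid medium lacking nitrogen on a light cycle of 16 h with 8 h darkness, at 22 °C. The group at 0 h was sampled in that state, and the group at 0.5 h was sampled after 0.5 h on the same medium with 2.5 mM glutamine. Each group had 2 libraries of total RNA, and the question is how transcript levels stand shortly after glutamine is given. The labels do not say whether the libraries came from separate cultures, so the p-values measure the spread between these libraries, which may be technical.

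Aquaporins are membrane channels that let water, and in some members small neutral solutes, cross a membrane down its gradient. Plants have many of them. PIPs set much of the water permeability of the cell surface, and a PIP1 protein usually reaches the plasma membrane together with a PIP2 protein. TIPs do the same for the vacuole, and some TIP2 proteins also let ammonia through, which links them to nitrogen storage. NIPs carry boric acid, metalloids and other small solutes, and SIPs reside in the endoplasmic reticulum. The pore of the family is lined by a pair of short Asn-Pro-Ala motifs, called NPA boxes.

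The coding sequences around the first NPA box are shown for 5 genes on which the results below turn, with the Asn, Pro and Ala codons in capitals. They were read from the RefSeq annotation of assembly TAIR10.1 in the coding direction, and each stretch is 57 bases long.
PIP1;2: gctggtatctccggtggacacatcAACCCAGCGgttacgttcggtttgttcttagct
PIP2;1: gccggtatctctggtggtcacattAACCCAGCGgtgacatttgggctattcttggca
PIP2;7: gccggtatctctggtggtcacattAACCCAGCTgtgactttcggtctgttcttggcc
TIP2;1: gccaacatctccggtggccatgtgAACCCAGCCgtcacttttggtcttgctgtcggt
TIP2;2: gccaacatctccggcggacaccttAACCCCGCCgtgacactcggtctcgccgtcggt
All 13 PIP and all 10 TIP genes held 2 such codon runs in frame. Each of the 3 SIP genes held 1. Of the NIP genes, 4 held 2 runs, 4 held 1 and NIP5;1 held 0.

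Transcript levels are given as RPKM, reads scaled to gene length and library size, as deposited by the authors after TMM scaling, so levels of different genes can be compared. Changes were tested with limma on log2(RPKM + 1) over the 18039 genes whose mean reached 1 RPKM, and a gene was called at a Benjamini-Hochberg adjusted p below 0.05. Log2 fold changes are on that scale, 0.5 h over 0 h, and are followed by the limma standard error (n = 2 per group). Of the 35 genes, 27 passed the minimum and 8 did not. The libraries held 20429735 to 27203579 reads in genes, of which aquaporins took 0.334 to 0.431%.

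Of the 27 tested genes, 5 fell and 0 rose. The 5 were PIP1;1, PIP1;2, PIP2;1, PIP2;2 and TIP2;2. Among all tested genes, 5.11% were called lower and 6.71% higher. At an unadjusted limma p below 0.05, 10 of the 27 were lower and 3 higher, against 14.7% and 13.9% of all tested genes. Limma-voom on recovered reads called 5 lower and 1 higher, TIP2;1, against 6.02% and 7.29% of all tested genes. Values at the 2 times were fully apart in 16 tested genes, 12 of them lower at 0.5 h and 4 higher, against 32.6% and 27.1% of all tested genes. The median change of the tested aquaporins was -0.24, and that of all tested genes was -0.03. In whole seedlings, fewer cells of a type and less RNA per cell cannot be told apart. Without the 1st or the 2nd library at 0 h the median change of the tested aquaporins was -0.44 or -0.10. Without the 1st or the 2nd at 0.5 h it was -0.29 or -0.056. Such fits leave 1 library in a group, and each called fewer of all tested genes in both directions. In the fits without the 1st or the 2nd library at 0 h the median change of all tested genes was -0.011 or -0.047. In those without the 1st or the 2nd at 0.5 h it was -0.015 or -0.038. With no minimum on the mean, 0 aquaporins were called lower, and limma called 0 genes higher and 2 lower of all 33602.

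**Figure D1:**
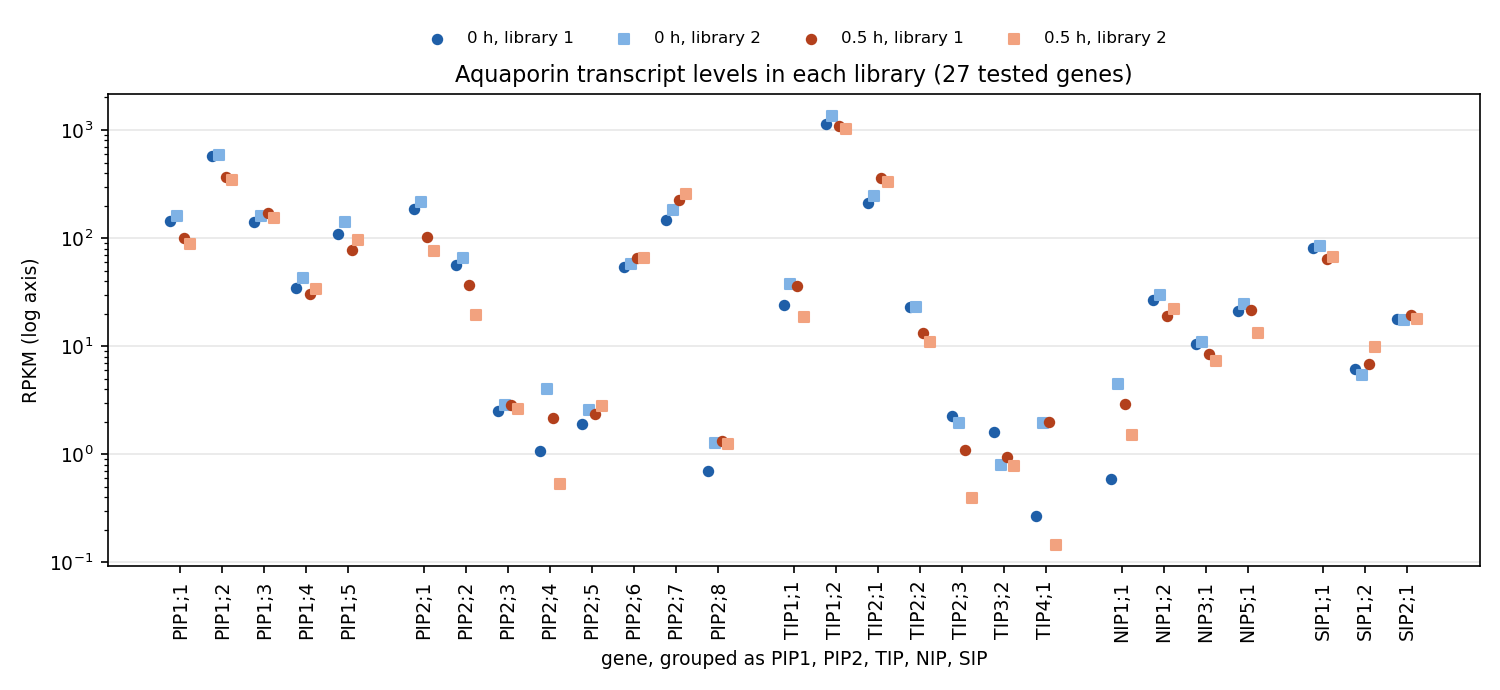
RPKM of the 27 tested aquaporin genes on a log axis, grouped by subfamily, with 1 point for each of the 4 libraries. The 8 genes with means above 100 RPKM stand far above the 10 with means between 1 and 10 RPKM, some of which spread widely between libraries of one time.

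**Figure D2:**
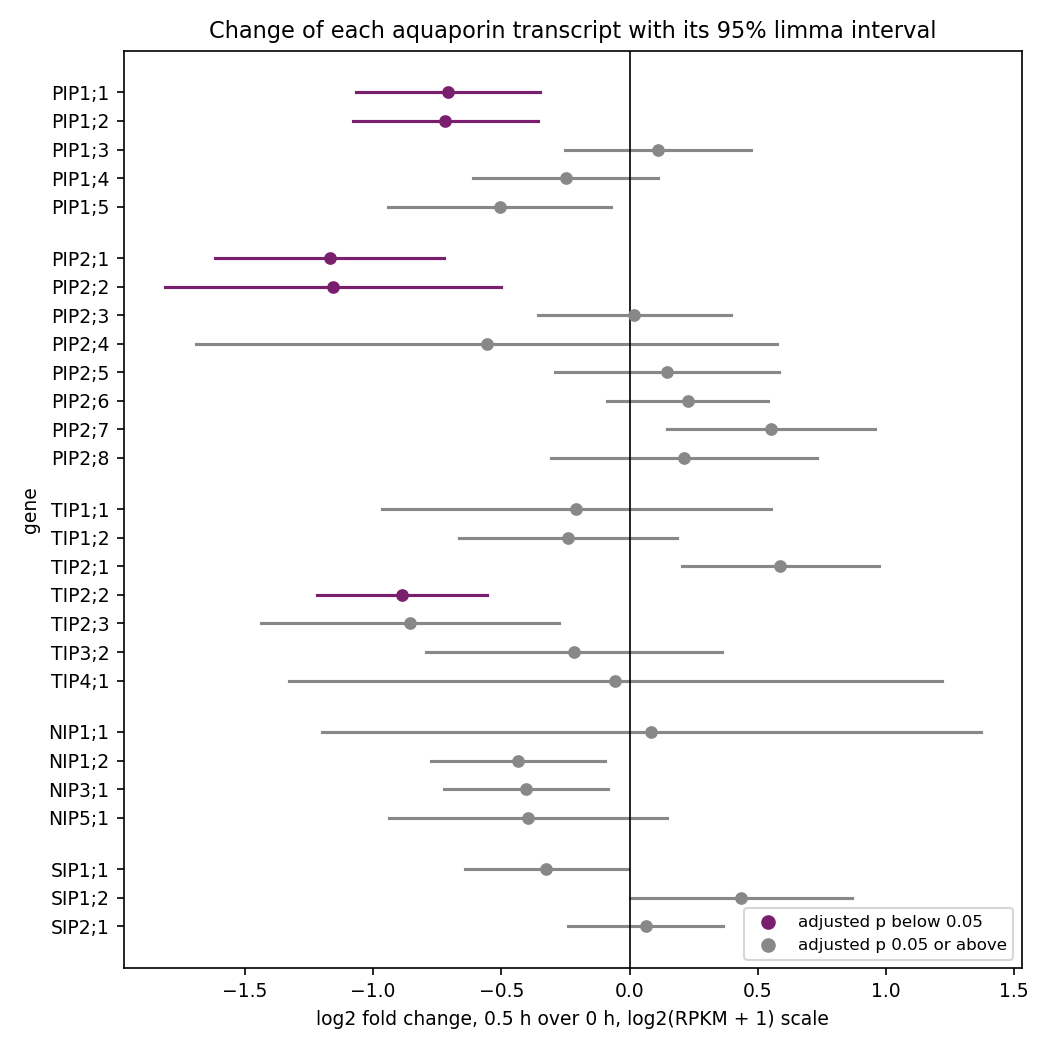
Log2 fold change of each tested aquaporin gene, 0.5 h over 0 h on the log2(RPKM + 1) scale, with its 95% limma interval. The 5 genes with an adjusted p below 0.05 all lie below 0 and none of the genes estimated above 0 is called.

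Levels were concentrated in a few members. TIP1;2 (AT3G26520), a gamma-type tonoplast water channel, alone made up 37.4 to 39.1% of the summed aquaporin RPKM in every library, with 1126 and 1360.01 RPKM at 0 h and 1081 and 1017 at 0.5 h. Its groups did not overlap, but the difference of -0.24 ± 0.18 did not pass (limma adjusted p = 0.42, 95% interval -0.66 to 0.19). The next in level were PIP1;2 and TIP2;1, ranked 2nd and 3rd at both times. By mean level over the libraries, 8 genes exceeded 100 RPKM, 9 lay between 10 and 100 and 10 between 1 and 10. The order behind them shifted with time. PIP2;1 was 4th at 0 h and 7th at 0.5 h, and PIP2;7 went from 5th to 4th. The genes ranked 5th, 6th and 7th at 0 h lay within each other's spread, at 165 ± 25.9, 153 ± 11.8 and 151 ± 13.4 RPKM (SD, n = 2).

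**Figure D3:**
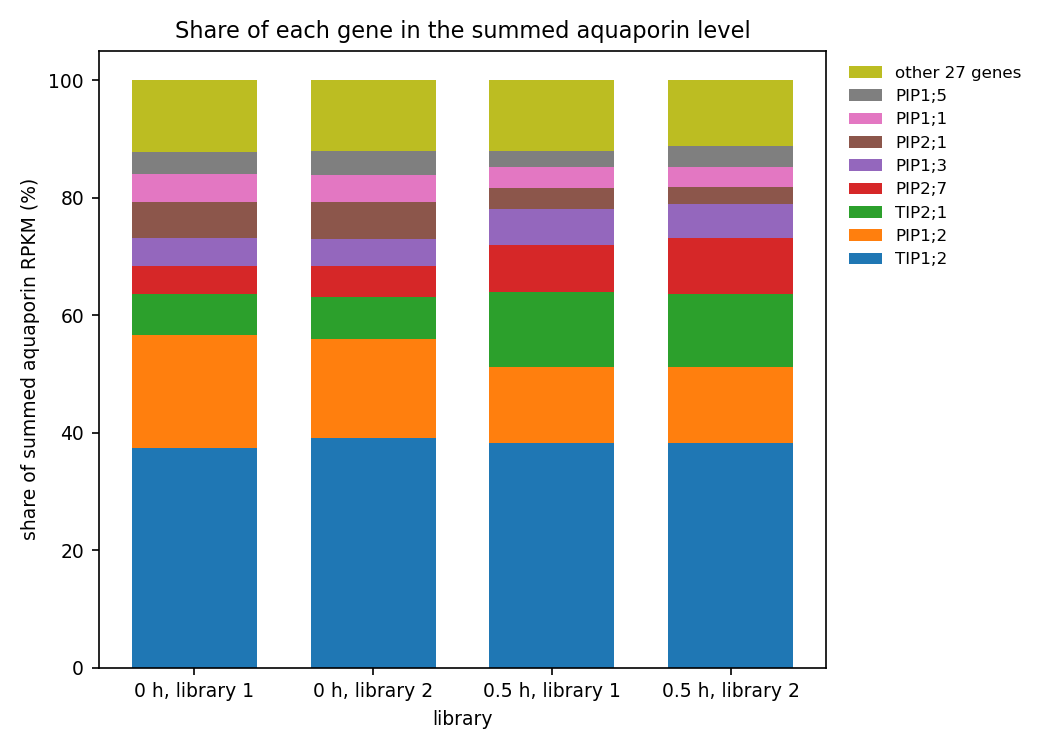
Share of each of the 8 most abundant aquaporin genes, and of the other 27 together, in the summed aquaporin RPKM of each library, in percent. The 2nd most abundant gene takes 19.2 and 16.9% at 0 h and 12.9% in both libraries at 0.5 h, and the 3rd takes 6.97 and 7.12% against 12.7 and 12.4%.

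Within PIP1, 2 of 5 genes fell and 0 rose, against 5.11% called lower and 6.71% called higher among all tested genes. PIP1;2 (AT2G45960), a plasma membrane channel also studied for carbon dioxide transport, had 576 and 586 RPKM at 0 h and 364 and 342 at 0.5 h. Both later libraries lay below both earlier ones, and the gene fell to 0.608 of its level at 0 h (-0.72 ± 0.15, limma adjusted p = 0.030). PIP1;1 (AT3G61430), its closest relative with 83.2% identical coding bases, had 145 and 162 RPKM at 0 h and 99.6 and 87.6 at 0.5 h. It fell by a like amount (-0.71 ± 0.15, limma adjusted p = 0.031). Both calls ended when any 1 of the 4 libraries was left out, although the direction held. The former gene then stood at -0.76 to -0.67 (limma adjusted p = 0.068 to 0.17) and the latter at -0.80 to -0.62 (0.054 to 0.14).

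PIP1;3 (AT1G01620) did not share that course. It had 141 and 160.2 RPKM at 0 h and 171 and 154 at 0.5 h, with overlapping groups (0.11 ± 0.15, limma adjusted p = 0.67, 95% interval -0.25 to 0.47). The level of PIP1;2 was 4.08 and 3.66 times that of this gene at 0 h, and 2.13 and 2.21 times at 0.5 h. PIP1;5 had 109 and 140.1 RPKM at 0 h against 78.3 and 95.9, and PIP1;4 had 34.6 and 42.3 against 30.6 and 33.6. In both, the later libraries lay below the earlier ones, and neither passed (limma adjusted p = 0.13 and 0.33).

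Within PIP2, 2 of 8 genes fell and 0 rose, against the same 5.11% and 6.71% of all tested genes. PIP2;1 (AT3G53420), a main water channel of root and leaf cells whose activity is set by phosphorylation, had 185 and 217 RPKM at 0 h and 102 and 76.6 at 0.5 h. The later libraries were both well below the earlier ones, and the mean fell to 0.445 of that at 0 h (-1.17 ± 0.19, limma adjusted p = 0.013). It remained called without the 1st or the 2nd library at 0 h or the 1st at 0.5 h, and ended without the 2nd at 0.5 h (-0.96, limma adjusted p = 0.062).

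PIP2;2 (AT2G37170), a close relative that contributes to root water transport, had 56.8 and 65.95 RPKM at 0 h and 36.8 and 19.6 at 0.5 h. The groups did not overlap, but the later libraries were far apart from each other. The gene fell by 1.16 ± 0.28 on the log2 scale (limma adjusted p = 0.042). The call ended under median-of-ratios scaling, quantile normalization, robust estimation and limma without the trend (limma adjusted p = 0.051 to 0.059). It also ended without the 1st library at 0 h (-1.26, 0.099), the 2nd at 0 h (-1.05, 0.14) or the 2nd at 0.5 h (-0.72, 0.090).

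PIP2;3 (AT2G37180), also named RD28 for its response to desiccation, is the neighbour of that gene in the annotation and lies on the opposite strand. The 858 coding bases of both differ at 45 positions, and the longest run without a difference is 242 bases. The authors' table gives a highest share of multi-mapped reads of 0.205 for each, so their counts are not fully separate. Below is the 60-base window, coding bases 415 to 474, where they differ most, with the 10 differing bases in capitals.
PIP2;2: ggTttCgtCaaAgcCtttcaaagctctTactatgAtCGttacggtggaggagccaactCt
PIP2;3: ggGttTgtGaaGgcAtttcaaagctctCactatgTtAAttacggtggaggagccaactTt
RD28 was far less abundant, at 2.50 and 2.87 RPKM at 0 h and 2.83 and 2.63 at 0.5 h, with overlapping groups (0.02 ± 0.16, limma adjusted p = 0.95). Its neighbour was 22.7 and 23.02 times as high at 0 h, and 13.03 and 7.43 times at 0.5 h. With the reads of both genes added together, the pair fell by 1.08 on the log2 scale (limma adjusted p = 0.043).

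PIP2;7 (AT4G35100), a channel known for regulation under salt stress, stood on the other side. It had 146 and 183 RPKM at 0 h and 227 and 255 at 0.5 h. Both later libraries exceeded both earlier ones, and the difference of 0.55 ± 0.17 did not pass (limma adjusted p = 0.087, 95% interval 0.15 to 0.96). PIP2;1 was thus 1.27 and 1.19 times as high as this gene at 0 h, and 0.451 and 0.301 times as high at 0.5 h, so the order of the 2 genes was the other way round in both later libraries. PIP2;6 had 54.4 and 57.6 RPKM at 0 h and 65.5 and 65.8 at 0.5 h (0.23 ± 0.13, limma adjusted p = 0.31). The remaining 3 genes of the group had means between 1.13 and 2.42 RPKM, with overlapping groups.

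Among the TIPs, 1 of 7 tested genes fell and 0 rose, against 5.11% and 6.71% of all tested genes. TIP2;2 (AT4G17340), a delta-type tonoplast channel, had 23.2 and 22.8 RPKM at 0 h and 13.1 and 10.9 at 0.5 h. The earlier libraries were nearly equal and the later ones both lower (-0.89 ± 0.14, limma adjusted p = 0.013). The call held without the 1st library at 0.5 h, and ended without the 1st at 0 h (-0.88, 0.063), the 2nd at 0 h (-0.90, 0.0503) or the 2nd at 0.5 h (-0.77, 0.053). TIP2;3 (AT5G47450), which shares 81.5% of its coding bases with that gene and was shown in yeast to pass ammonia, had 2.27 and 1.93 RPKM at 0 h and 1.10 and 0.392 at 0.5 h. These values rest on 57, 54, 31 and 8 reads. The difference of -0.86 ± 0.25 did not pass (limma adjusted p = 0.071). It passed with quantile normalization (-0.89, 0.047), with robust estimation (0.047) and without the 1st library at 0.5 h (-1.15, 0.030). It did not pass without the 2nd at 0.5 h (-0.56, 0.20), the 1st at 0 h (-0.78, 0.27) or the 2nd at 0 h (-0.93, 0.18). At so low a level the estimate moved with the pseudocount, to -1.51 at 0.1 RPKM and -0.31 at 5 RPKM.

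TIP2;1 (AT3G16240), the most abundant delta-type gene and likewise able to pass ammonia in yeast, was higher in both later libraries. It had 209.6 and 247 RPKM at 0 h and 358 and 328 at 0.5 h. The difference of 0.59 ± 0.16 did not pass in limma (adjusted p = 0.063, 95% interval 0.20 to 0.97), and it passed in limma-voom on recovered reads (0.59, adjusted p = 0.040). It stood at 9.02 and 10.8 times the level of TIP2;2 at 0 h, and at 27.3 and 30.03 times at 0.5 h. The gene overlaps AT3G16250 in the annotation, and reads of overlapping genes cannot be told apart because no source used here gives the strand setting. AT3G16250 had 47.6 and 40.1 RPKM at 0 h and 42.4 and 58.5 at 0.5 h (limma adjusted p = 0.56).

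The ammonia-permeable pair thus had estimates of opposite sign. Neither was called in the limma fit used throughout, and each passed under some of the alternatives given above. TIP1;1 (AT2G36830), the other gamma-type channel tested, had 24.04 and 37.6 RPKM at 0 h and 35.7 and 18.8 at 0.5 h, with each group spanning the mean of the other (-0.21 ± 0.32, limma adjusted p = 0.71).

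No NIP gene passed, and 4 of 9 were tested. In 2 of them the later libraries lay below the earlier ones, as they did in 32.6% of all tested genes. NIP1;2 (AT4G18910), a transporter of aluminium malate, had 26.7 and 29.8 RPKM at 0 h and 19.1 and 22.2 at 0.5 h (-0.44 ± 0.14, limma adjusted p = 0.10). NIP3;1 (AT1G31885) had 10.4 and 11.02 RPKM against 8.47 and 7.30 (-0.40 ± 0.13, limma adjusted p = 0.11). Its highest share of multi-mapped reads was 0.209. NIP5;1 (AT4G10380), the boric acid channel of root uptake, had 21.1 and 24.4 RPKM at 0 h and 21.8 and 13.2 at 0.5 h, with overlapping groups (-0.40 ± 0.23, limma adjusted p = 0.30). Its estimate rested on the 2nd library at 0.5 h, being -0.056 without it (limma adjusted p = 0.89) and -0.74 without the 1st (0.043).

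No SIP gene passed either. SIP1;1 (AT3G04090), the most abundant of the 3, had 80.8 and 83.7 RPKM at 0 h and 63.7 and 67.3 at 0.5 h (-0.32 ± 0.13, limma adjusted p = 0.17). SIP1;2 (AT5G18290) had 6.14 and 5.45 RPKM at 0 h against 6.81 and 9.79 (0.44 ± 0.18, limma adjusted p = 0.17). Leaving out the 1st or the 2nd library at 0.5 h gave 0.67 or 0.20. The gene overlaps AT5G18300, which had 3.22 and 1.89 RPKM at 0 h and 3.11 and 2.89 at 0.5 h. SIP2;1 (AT3G56950) had 17.8 and 17.4 RPKM at 0 h and 19.3 and 17.7 at 0.5 h (0.06 ± 0.13, limma adjusted p = 0.77). It overlaps AT3G56940, which had 355 and 432 RPKM at 0 h and 163 and 145 at 0.5 h, and 0.102 was its highest share of multi-mapped reads.

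**Figure D4:**
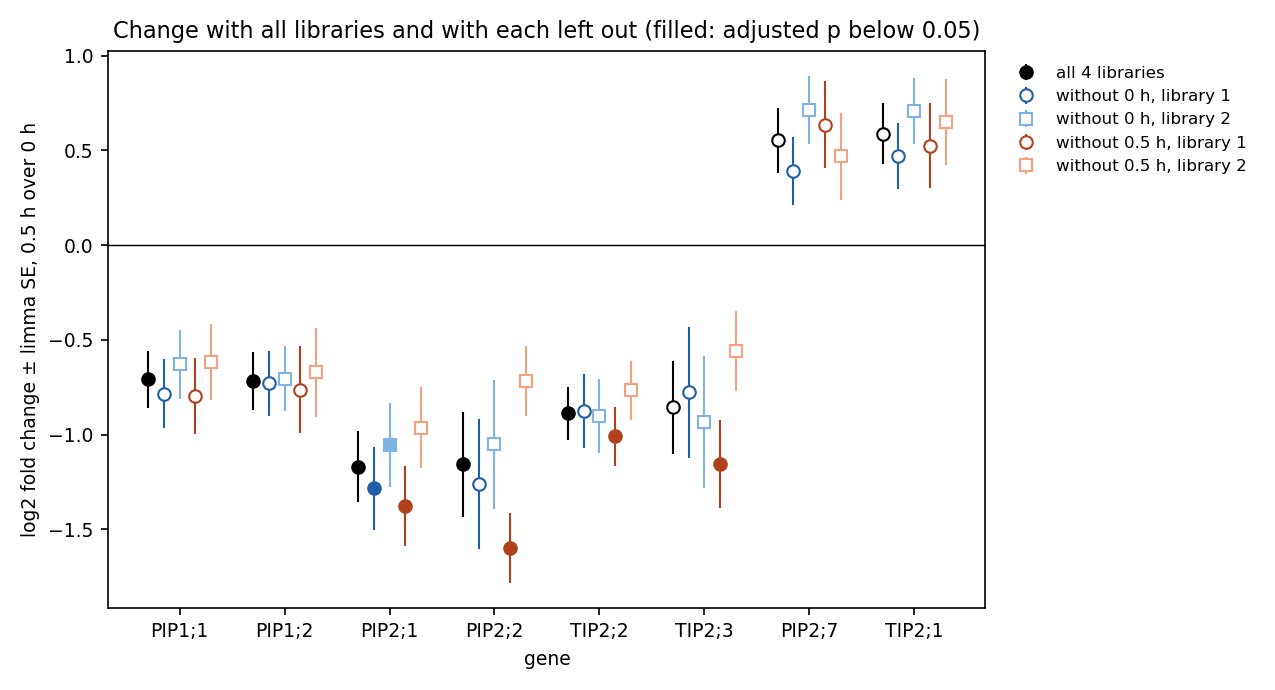
Log2 fold change ± limma standard error of 8 aquaporin genes with all 4 libraries and with each library left out in turn, filled where the adjusted p was below 0.05. Each gene keeps its sign in all 5 fits, and without the 2nd library at 0.5 h none of the 8 is filled.

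Levels were also summed over the members of each subfamily. PIP1 had 1006 and 1090.4 RPKM in all at 0 h and 744 and 713 at 0.5 h, a ratio of 0.695. PIP2 had 449 and 534 RPKM at 0 h and 440.1 and 424 at 0.5 h, a ratio of 0.879. Its log2 ratio was -0.19, and -0.77 without its most abundant member, PIP2;7. Without the 2nd library at 0 h the ratio of all 8 was -0.055, and without the 1st it was -0.31. That member made up 32.6 and 34.2% of that sum at 0 h and 51.5 and 60.1% at 0.5 h. The TIP sum had 1388 and 1673 RPKM at 0 h and 1493 and 1377 at 0.5 h, with overlapping groups. Its log2 ratio was -0.09 with its most abundant member, which made up 72.4 to 81.3% of it, and 0.42 without. With all members its sign turned without the 2nd library at 0 h (0.048), and it was -0.22 without the 1st at 0 h, -0.15 without the 1st at 0.5 h and -0.036 without the 2nd at 0.5 h. The NIP sum went from 60.4 and 71.3 RPKM to 53.4 and 44.9, and the SIP sum from 104.8 and 106.6 to 89.8 and 94.8. All 35 genes together had 3008 and 3476 RPKM at 0 h and 2820.1 and 2654 at 0.5 h, a ratio of 0.844. With 2 libraries per group no exact permutation test of such a sum can pass 0.05, so none was run.

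Genes of seed and pollen channels were at or near 0 at both times. TIP1;3, TIP5;1 and NIP4;1, known from pollen, held 0 recovered reads in all 4 libraries, and NIP4;2, also of pollen, held 1, 0, 1 and 0. For the first of these a count of 0 allows up to 0.145 to 0.192 RPKM, taking 3 reads per library as the limit, which covers counting error only. The pollen marker VGD1 also held 0 reads throughout. The channels of seed storage vacuoles, TIP3;1 and TIP3;2, had 0.578 to 0.964 and 0.776 to 1.61 RPKM. TIP3;2 passed the minimum and was not called (limma adjusted p = 0.60), and its highest share of multi-mapped reads was 0.200. TIP3;1 overlaps AT1G73200, at 7.16 to 14.6 RPKM, and TIP3;2 overlaps AT1G17820, at 5.38 to 7.08 RPKM. Reads of these overlapping genes cannot be told apart here either. The 3 seed markers OLEO1, CRA1 and SESA3 summed to 0.537 and 3.46 RPKM at 0 h and 2.03 and 4.59 at 0.5 h. The other untested members were NIP2;1, NIP6;1 and NIP7;1, with means of 0.641, 0.357 and 0.152 RPKM.

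Several aquaporins differed more between libraries of one time than between the times. TIP4;1 (AT2G25810), known mainly from roots, held 7 and 60 reads in the libraries sampled first and 63 and 3 in the later ones. As RPKM with exact 95% Poisson intervals, that is 0.249 (0.1002 to 0.513) and 1.92 (1.46 to 2.47) at 0 h, and 1.99 (1.53 to 2.54) and 0.125 (0.0257 to 0.364) at 0.5 h. The intervals of libraries of one time did not overlap. PIP2;4 (AT5G60660), also mainly of roots, had 1.072 and 4.03 RPKM at 0 h and 2.14 and 0.530 at 0.5 h. NIP1;1 (AT4G19030), an arsenite-permeable channel of roots, had 0.584 and 4.50 RPKM at 0 h and 2.91 and 1.51 at 0.5 h. In all 3 of these the 2nd library at 0 h and the 1st at 0.5 h were the higher of their group.

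That order of libraries was found in 15 of 27 tested aquaporins, or 55.6%, and in 19.2% of all tested genes. It was also found in 5 of 9 root markers and in 0 of 5 green shoot markers. The reverse order was found in 1 of the 27, 29.5% of all tested genes, 0 root markers and 1 shoot marker. The first order was read from TIP4;1, PIP2;4 and NIP1;1, which are among the 15, so the count does not test it. Among the root markers, PYK10, MYB36, SCR and HKT1 were in neither order. EXP7, an expansin of root hairs, had 0.422 and 1.06 RPKM at 0 h and 1.76 and 0.0704 at 0.5 h. These values rest on 10, 29, 49 and 1 reads, and the gene was below the minimum for testing. CASP2, of the root endodermis, had 3.14 and 5.57 against 5.14 and 2.20 RPKM. Of 6 tested root markers, limma called 1 higher and 0 lower, against 6.71% and 5.11% of all tested genes. The 1 was SHR (0.78 ± 0.14, limma adjusted p = 0.020). It had 3.29 and 3.77 RPKM at 0 h and 7.11 and 6.42 at 0.5 h. SCR was also higher in both later libraries, at 8.06 and 10.02 against 11.8 and 12.6 RPKM (limma adjusted p = 0.13). MYB36 was lower in both, at 9.22 and 7.78 against 7.60 and 5.79 RPKM (limma adjusted p = 0.27). The 9 root markers summed to 189.8 and 318 RPKM at 0 h and 212 and 202 at 0.5 h. Without PYK10, which makes up most of that sum, the other 8 had 32.02 and 44.7 against 46.9 and 35.9. No root marker was at 0 reads in every library. The 5 shoot markers summed to 8614 and 9020 RPKM at 0 h and 8294 and 8859 at 0.5 h. RBCS1A made up most of that sum, with 7681 and 7963 RPKM at 0 h and 7605 and 8092 at 0.5 h. Of the 5, limma called 1 higher and 0 lower. This was FAMA, at 8.05 and 7.86 against 11.4 and 14.9 RPKM (0.65 ± 0.16, limma adjusted p = 0.043). RCA was lower in both later libraries, at 862 and 984 against 618 and 657 RPKM (limma adjusted p = 0.089). The part of root content in the aquaporin changes was not tested. The 2nd library at 0.5 h had the fewest reads and the highest chloroplast share, 0.379% against 0.0569 to 0.0974% in the others. The part of either in the aquaporin changes was not tested.

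**Figure D5:**
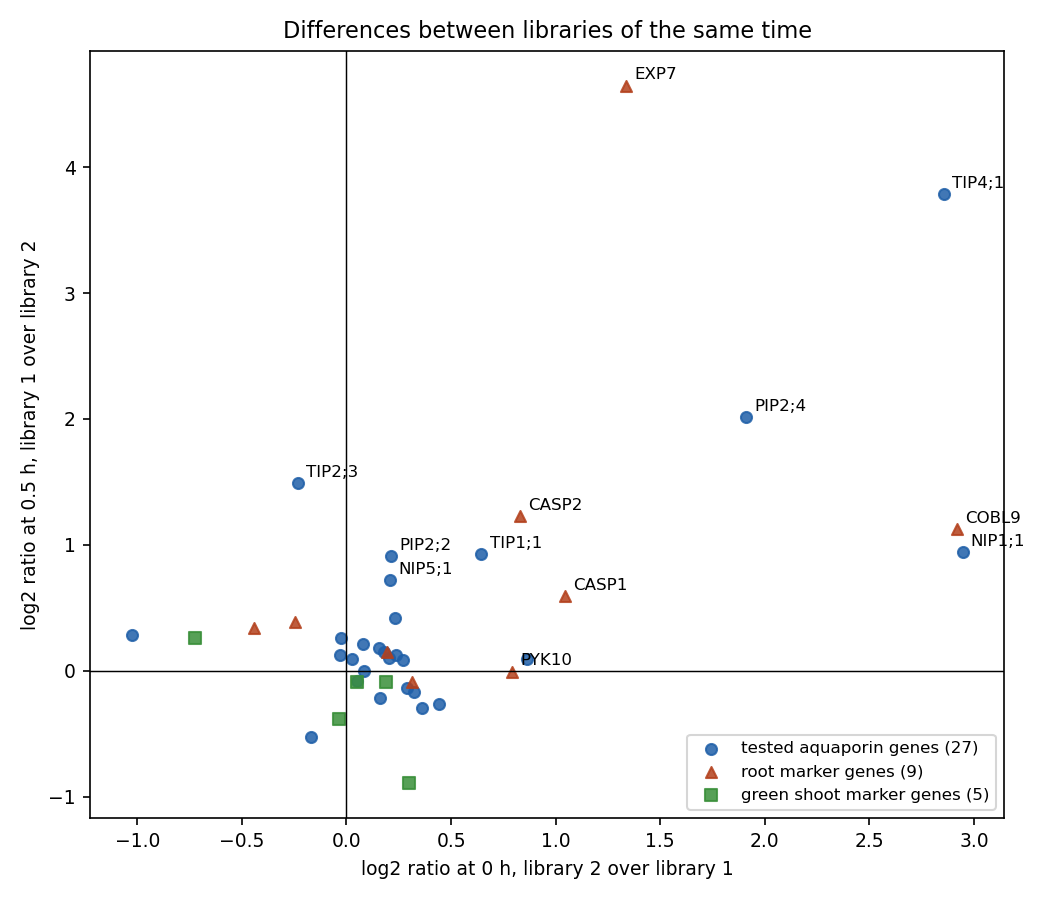
Log2 ratio of RPKM between libraries of one time for 27 tested aquaporins, 9 root markers and 5 green shoot markers, with the 2nd over the 1st library at 0 h on the horizontal axis and the 1st over the 2nd at 0.5 h on the vertical axis. The upper right corner, above 0 on both axes, holds 15 of the aquaporins and 5 of the root markers, EXP7 and CASP2 among them, and 0 of the shoot markers.

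Of 14 tested regulators of aquaporins, limma called 1 higher and 2 lower, against 6.71% and 5.11% of all tested genes. SYP121 (AT3G11820), a plasma membrane syntaxin that takes part in delivering PIPs, had 61.2 and 55.6 RPKM at 0 h and 106 and 112 at 0.5 h. It rose by 0.89 ± 0.14 on the log2 scale (limma adjusted p = 0.013), a call that ended without the 2nd library at 0.5 h (0.85, 0.0599). RMA3 (AT4G27470), of a family of membrane-bound ubiquitin ligases whose relative in pepper marks PIPs for breakdown, fell from 19.3 and 26.5 RPKM to 10.5 and 12.0. Its change was -0.95 ± 0.18 (limma adjusted p = 0.020), and it stayed called without the 1st library at 0 h but not without the 2nd at 0 h (-0.73, 0.079), the 1st at 0.5 h (-0.86, 0.053) or the 2nd at 0.5 h (-1.03, 0.056). UBC32 (AT3G17000), a ubiquitin-conjugating enzyme of the endoplasmic reticulum, fell by 0.64 ± 0.15 (limma adjusted p = 0.042), and this call ended when any library was left out (-0.76 to -0.53, limma adjusted p = 0.0502 to 0.18).

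Proton pumps and boron transport genes gave 0 calls of 6 and 0 of 3 tested genes in limma. At an unadjusted p below 0.05, 1 pump was lower, against 14.7% of all tested genes, and 0 boron genes passed that threshold. Limma-voom called 0 of each. The pump was AVP1 (AT1G15690), the vacuolar pyrophosphatase, with 228 and 291 RPKM at 0 h and 186 and 143 at 0.5 h (-0.66 ± 0.20, limma adjusted p = 0.080). AP2M (AT5G46630), an adaptor subunit that keeps NIP5;1 in place, had the smallest p of the boron list (-0.26 ± 0.15, limma adjusted p = 0.29).

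The groups differed in more than glutamine. Seedlings transferred without glutamine were not among these samples, so glutamine, transfer and time of day cannot be told apart. Limma called all 4 touch markers higher, and of 5 tested clock genes it called 4 lower and 0 higher. The shares of all tested genes called were 6.71% higher and 5.11% lower. The part of transfer or time of day in the aquaporin changes was not tested. The touch markers summed to 1122 and 891 RPKM at 0 h and 3433 and 4377 at 0.5 h, and the 6 clock genes to 233 and 229 against 171 and 164.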

How the data were processed

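The deposited table gives RPKM values for 4 libraries, scaled by the authors with TMM as its name says, gene length and, as a fraction, the highest share of multi-mapped reads per gene, per the file headers. TAIR10 and SAMtools are named per the submitters' processing notes; no source used here names the aligner, counter or strand setting. Values times gene length lay on steps with 0.5 read added; reads so recovered were whole (tolerance 0.05 read) in 100.0% of genes with no multi-mapped read, and in 47.5 to 51.7% of the rest, so these reads served limma-voom as an alternative and no count test. Replicates differed beyond counting error (chi-square per gene 17.3 and 16.1) and each counted as a sample.

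Genes whose mean reached 1 RPKM entered limma 3.58.1 (R 4.3.3, intensity trend, group term alone, 2 residual and 4.824 prior degrees of freedom, two-sided p adjusted over all genes) on log2(RPKM + 1), which understates changes of low genes. Named were the called members and, per subfamily, the 2 highest and the 2 with the smallest p. Of the regulator, proton pump and boron lists, the called or best genes were named. Further members and markers were named after their values were seen. Members and lists were chosen with earlier results of these data known. Names, overlaps and sequences came from TAIR10.1, used without coordinates since the authors' build name differs. Python 3.11.15, pandas 2.3.3 and biopython 1.88 were used.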

Additional observations from a re-analysis of the deposited data

How the results depend on the processing

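The 5 called aquaporins kept their direction under each alternative run, though not their calls. Alternatives were other pseudocounts (0.1 and 5), other minimums on the mean (none and 5 RPKM), median-of-ratios scaling, quantile normalization, limma with robust estimation or with no trend, limma-voom on recovered reads, a replicate block and leaving out each library. Limma-voom called 1 aquaporin higher, against 7.29% of all tested genes. With no minimum, 0 aquaporins were lower, and 0 regulators were higher and 0 lower. Over all 33602 genes limma then called 0 higher and 2 lower, and the cause was not tested. With no trend 1 regulator was lower. Leaving out 1 library left 1 in a group, and fewer of all tested genes were then called in both directions. The median change of the tested aquaporins then ranged from -0.44 to -0.056.

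Without the most abundant member, the log2 ratio of the summed level was -0.31 for PIP1, -0.77 for PIP2, 0.42 for TIP and 0.19 for SIP, and without members over 0.05 multi-mapped reads it was -0.25 for SIP. The PIP2 sum ranged from -0.31 to -0.055 with 1 library left out.

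Single genes that changed sign were uncalled throughout. RD28 went to -0.058 with quantile normalization, and NIP1;1 to -0.016 with that setting and to -0.022 with a pseudocount of 5. With 1 library left out, RD28 ranged from -0.054 to 0.092, PIP2;4 from -1.20 to 0.082, PIP2;5 from -0.0061 to 0.30, TIP1;1 from -0.65 to 0.24, TIP3;2 from -0.49 to 0.054, TIP4;1 from -0.75 to 0.64 and NIP1;1 from -0.81 to 0.98.

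The replicate numbers were shared by both groups, but libraries of one number did not deviate together (correlation -0.078). A fit with the replicate block called the same 5 aquaporins lower and 0 higher, and it moved no call of the regulators, 1 higher and 2 lower. With 2 libraries per group, and 3 to 141 reads for several root-type members, small differences were not detectable at this depth.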
